A study of Homo sapiens with 6 samples.

Results

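The miR-200 family, miR-205 and miR-203a are microRNAs (miRNAs) best known from epithelia. They were followed here in small RNA from extracellular vesicles of MHCC97H, an established line of human hepatoma cells with a strong tendency to metastasize. Members were taken by name, as every row of counts that named an arm of miR-200a, miR-200b, miR-200c, miR-141, miR-429, miR-205 or miR-203a. These names were chosen with earlier results of these data known. The rule gave 10 of 1007 rows. Control vesicles (3 libraries) were compared with vesicles of cells given 4 µmol/L of the plant sesquiterpene lactone xanthatin over 24 h (3 libraries). Per the labels' protocols, xanthatin was dissolved in DMSO, at a final 0.5% in all experiments. All libraries come from 1 cell line, whose medium held 5% fetal bovine serum besides 5% serum without exosomes, and vesicles were pelleted at 120000 x g. The labels do not say whether the libraries came from separate cultures, so p-values measure only the spread between these libraries.

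The miR-200 family maintains the epithelial state. Its members repress ZEB1 and ZEB2, transcription factors that silence E-cadherin during the epithelial to mesenchymal transition, and the ZEB factors repress the miR-200 genes in turn. miR-205, abundant in basal epithelia, also represses ZEB1 and ZEB2. miR-203a is known from the differentiating epidermis, where it represses the stem cell factor p63. A miRNA finds its targets mainly through its seed, bases 2 to 8 from its 5′ end.

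RefSeq (build GRCh38.p14) held a mature sequence for 9 of the 10 rows, all but miR-141-5p. They are shown because the seeds sort the family into groups whose levels differed widely in these libraries. The seed is in capitals, and the first 3 share one seed.
hsa-miR-200c-3p: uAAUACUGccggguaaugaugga
hsa-miR-200b-3p: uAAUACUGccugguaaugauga
hsa-miR-429: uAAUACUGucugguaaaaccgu
hsa-miR-200a-3p: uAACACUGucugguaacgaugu
hsa-miR-141-3p: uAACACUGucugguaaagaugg
hsa-miR-200b-5p: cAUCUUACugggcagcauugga
hsa-miR-200a-5p: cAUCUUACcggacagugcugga
hsa-miR-205-5p: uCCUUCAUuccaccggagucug
hsa-miR-203a-3p: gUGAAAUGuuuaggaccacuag

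The 9 sequences were 22 or 23 bases long, held 36.4% to 54.5% G and C, and fell into 5 seed groups. Among the 441 known rows with a RefSeq sequence, no row outside the members carried any of these seeds. miR-200b-3p and miR-200c-3p matched at 20 of 22 bases and differed by U11G and A22G, with positions counted from the 5′ end of miR-200b-3p and its base given first. miR-200a-3p and miR-141-3p also matched at 20 of 22 bases (C17A and U22G, from the 5′ end of miR-200a-3p). miR-200b-3p and miR-200a-3p matched at 18 of 22, and U4C, counted from the 5′ end of miR-200b-3p, is the difference that lies in the seed. Members this alike may have shared reads in the authors' counting, which is not described in the sources used here.

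In the GENCODE release 29 annotation (GRCh38), the precursors lie at 4 places. MIR200B (chromosome 1, 1167104 to 1167198), MIR200A (1167863 to 1167952) and MIR429 (1169005 to 1169087) form a cluster on the plus strand, inside no other annotated gene. MIR200C (chromosome 12, 6963699 to 6963766) and MIR141 (6964097 to 6964191) lie in an intron of the noncoding RNA MIR200CHG. MIR205 (chromosome 1, 209432133 to 209432242) overlaps an exon of the noncoding RNA MIR205HG in part. MIR203A (chromosome 14, 104117405 to 104117514) overlaps MIR203B (104117418 to 104117503), which lies within its bounds on the other strand. The hairpin of MIR200B is shown because both of its arms (capitals, miR-200b-5p first) were counted and tested.
MIR200B: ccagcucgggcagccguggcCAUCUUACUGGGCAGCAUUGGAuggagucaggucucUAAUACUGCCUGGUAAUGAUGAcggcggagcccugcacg

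The control libraries held 63965 to 80088 miRNA counts and the xanthatin libraries 204520 to 267956, so the groups differed in depth. Levels are therefore given as raw counts and as CPM, counts scaled to a common miRNA total after TMM normalization, which allows for differences in composition. Other markers moved between the groups as shares of miRNA counts, and their part in the results below was not tested. Names listed for hepatocytes (5 of 5 with counts) summed to 11% to 13.8% in control and 2.74% to 3.33% in xanthatin libraries. Among them miR-122-5p, the main hepatocyte miRNA, fell by 5.48 on the log2 scale (adjusted p = 1.98e-05 by edgeR), while miR-192-5p rose by 1.22 (adjusted p = 0.0399). miR-148a-3p, with the most counts (13110 in control and 13997 in xanthatin libraries), fell by 1.29 (adjusted p = 0.00272 by edgeR). Lists here and below share names (miR-148a, miR-192, miR-194, miR-145 and miR-375), so they are not independent. Names listed for blood and serum (6 of 7 with counts, miR-144 at 0) summed to 0.625% to 1.19% and 0.0664% to 0.0719%. Most of that sum was miR-486-5p, an erythroid miRNA (1878 counts in control and 421 in xanthatin libraries). miR-16-5p had 10 and 63 counts and miR-451a 6 and 10, both too low to test. Names listed for stroma, endothelium and muscle (8 of 8 with counts) summed to 0.151% to 0.360% and 0.0160% to 0.0279%. Most of the control sum was miR-143-3p (418 counts), which had 56 in xanthatin libraries beside 42 of miR-1-3p and 39 of miR-126-3p. In bulk vesicle RNA, fewer vesicles of a kind and less of a miRNA per vesicle cannot be told apart.

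Relative to all miRNAs, vesicle libraries of xanthatin-treated cells held less miR-200c-3p and less miR-203a-3p. miR-200c-3p, the most abundant member, was at 2492 ± 298 CPM (SD, n = 3) in control and 1046 ± 204 CPM in xanthatin libraries. miR-203a-3p was at 1378 ± 962 and 284.7 ± 25.4 CPM. miR-200b-3p and miR-205-5p had fold changes of similar size to that of miR-200c-3p but did not pass. The 5p arms of miR-200a and miR-200b, which are usually taken for the less used strands, showed overlapping groups.

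Of the 10 members, 6 had enough counts for the test (edgeR's quasi-likelihood F test with Benjamini-Hochberg adjustment over 254 tested miRNAs). Of these 6, 2 were called lower and 0 higher at an adjusted p under 0.05. Over the whole data set, 43 of 254 tested miRNAs were called lower (16.9%), 34 higher (13.4%) and 77 in either direction (30.3%). At an unadjusted p under 0.05 there were 4 of 6 members and 114 of 254 miRNAs. The median log2 fold change was -1.22 over the 6 members and -0.16 over the 254. In CPM, all xanthatin libraries lay under all control libraries for 4 of the 6, against 29.5% of the tested miRNAs, and 25.2% of the tested miRNAs lay wholly above. Among 6 members a share of 16.9% amounts to about 1 call, so nothing particular to these miRNAs is read from 2. Nor is it read from the medians or the 4 of 6, as the members were chosen with earlier results of these data known.

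**Figure D1:**
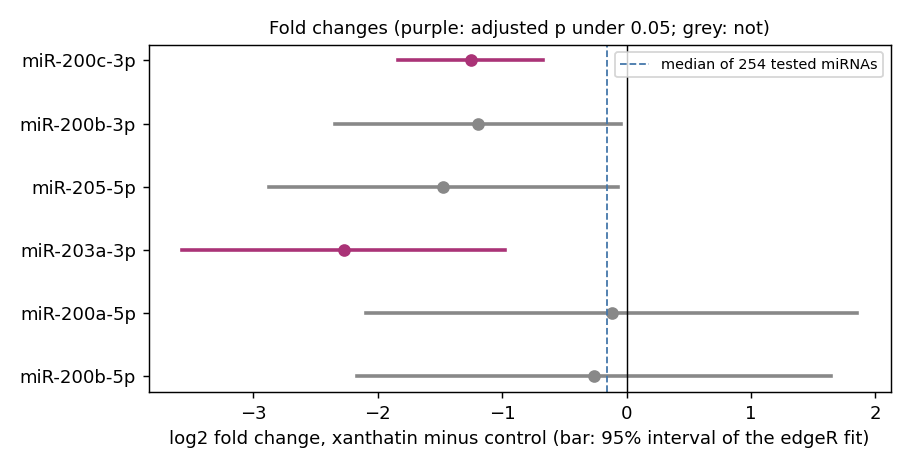
Log2 fold change, xanthatin minus control, of the 6 tested miRNAs (points) with the 95% interval of the edgeR fit (bars), with the median of the 254 tested miRNAs as a dashed line. The intervals of miR-200c-3p (-1.84 to -0.67) and miR-203a-3p (-3.57 to -0.98) belong to the called members, while those of the 5p arms span 0 widely.

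The 3 control libraries held 598 counts of miR-200c-3p, of which replicate 1 gave 191, replicate 3 gave 185 and replicate 2 the rest. The xanthatin libraries held 649, namely 210, 210 and 229 in replicates 1 to 3. The raw counts thus overlapped, in libraries whose totals did not. As CPM the control values were 2211, 2805 and 2462 and those with xanthatin 994.2, 873 and 1272, with no overlap. The log2 fold change was -1.25 (SE 0.24, 95% interval -1.84 to -0.67, adjusted p = 0.00954 by edgeR). miR-200c-3p ranked 39 to 48 among the 497 known names in control and 55 to 59 in xanthatin libraries. Leaving out control replicate 2 ended the call (-1.08, adjusted p = 0.0564), as did testing without a count filter (-0.99, adjusted p = 0.121). With libraries thinned to the smallest total it was at -1.23 (adjusted p = 0.0152).

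miR-200b-3p, which shares the seed of miR-200c-3p and thereby much of its target range, was read 25, 37 and 30 times in the control replicates and 25, 38 and 41 times with xanthatin. Its CPM values were 289.3, 467.5 and 399.2 against 118.4, 158 and 227.7. The groups did not overlap in CPM, but the log2 fold change of -1.19 (SE 0.48, 95% interval -2.34 to -0.04) did not pass (adjusted p = 0.101 by edgeR). Over 21 alternative settings its adjusted p ranged from 0.0522 to 0.46.

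miR-429, the remaining member with this seed and a cluster neighbour of miR-200b, was read 0, 2 and 1 times in the control replicates and 0, 0 and 1 times with xanthatin, too few for the test. Its count rate in xanthatin was 0.127 of that in control libraries, with an exact 95% Poisson interval of 0.00242 to 1.58 that covers counting error only. Of the counts with this seed, miR-200c-3p held 85.1% to 88.4% in control and 84.5% to 89.4% in xanthatin libraries. The AAUACUG group was thus mostly miR-200c-3p in every library.

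The other seed of the family, which differs by 1 base, was barely read. Replicates 1 to 3 gave 2, 4 and 2 counts of miR-200a-3p without and 2, 3 and 2 with xanthatin. In CPM its groups did not overlap (23.15, 50.54 and 26.61 against 9.469, 12.47 and 11.11), but its rate ratio of 0.333 had an exact Poisson interval of 0.103 to 1.05. miR-141-3p and miR-141-5p, from the transcript that also carries miR-200c, had 0 counts in all control libraries and 1 count each in the xanthatin group. A count of 0 allows up to 3 counts, equal to 34.7 to 39.9 CPM in a control library, so no fold is given. miR-200c-3p, 398 bases upstream of miR-141 by precursor start, held 185 or more counts in each library.

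Counts of miR-205-5p were low, with 14, 16 and 15 in the control replicates and 11, 12 and 18 with xanthatin. Control CPM values were 162, 202.2 and 199.6, against 52.08, 49.89 and 99.97 with xanthatin, again without overlap. The log2 fold change was -1.47 (SE 0.58, 95% interval -2.88 to -0.07), and it did not pass (adjusted p = 0.0994 by edgeR; 0.0572 to 0.523 over 21 alternative settings). On the summed counts, 45 against 41, the xanthatin rate was 0.347 of the control rate, with an exact Poisson interval of 0.222 to 0.542 that covers counting error only and not the spread between libraries.

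Of 342 control counts of miR-203a-3p, replicate 2 gave 67, replicate 3 gave 60 and replicate 1 the rest. With xanthatin, replicates 1 to 3 gave 55, 68 and 56. Control replicate 1 stood apart from the other 5 libraries, which held similar counts. Its control CPM values were 2488, 846.5 and 798.4, against 260.4, 282.7 and 311 with xanthatin. The groups did not overlap, and the log2 fold change was -2.27 (SE 0.54, 95% interval -3.57 to -0.98, adjusted p = 0.0212 by edgeR). Without control replicate 1 it was -1.57 (adjusted p = 0.0310), while leaving out xanthatin replicate 1, 2 or 3 ended the call (adjusted p = 0.0809, 0.0756 and 0.0717).

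The row of miR-203b-5p, which is no member, is given because it comes from the strand opposite to miR-203a-3p. Over 21 of their 22 bases the sequences are complementary, with the seed of miR-203b-5p in capitals.
hsa-miR-203b-5p: uAGUGGUCcuaaacauuucaca

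Control replicates 1 to 3 gave 29, 1 and 0 counts of miR-203b-5p, and each xanthatin library gave 0. Its counts lay almost wholly in control replicate 1, the library in which miR-203a-3p was high. miR-203b-3p had 1 count in each control library and 0 in each xanthatin library. Whether the authors' counting used the strand is not given in the sources used here, and the link between the counts of the opposite strands was not tested.

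**Figure D2:**
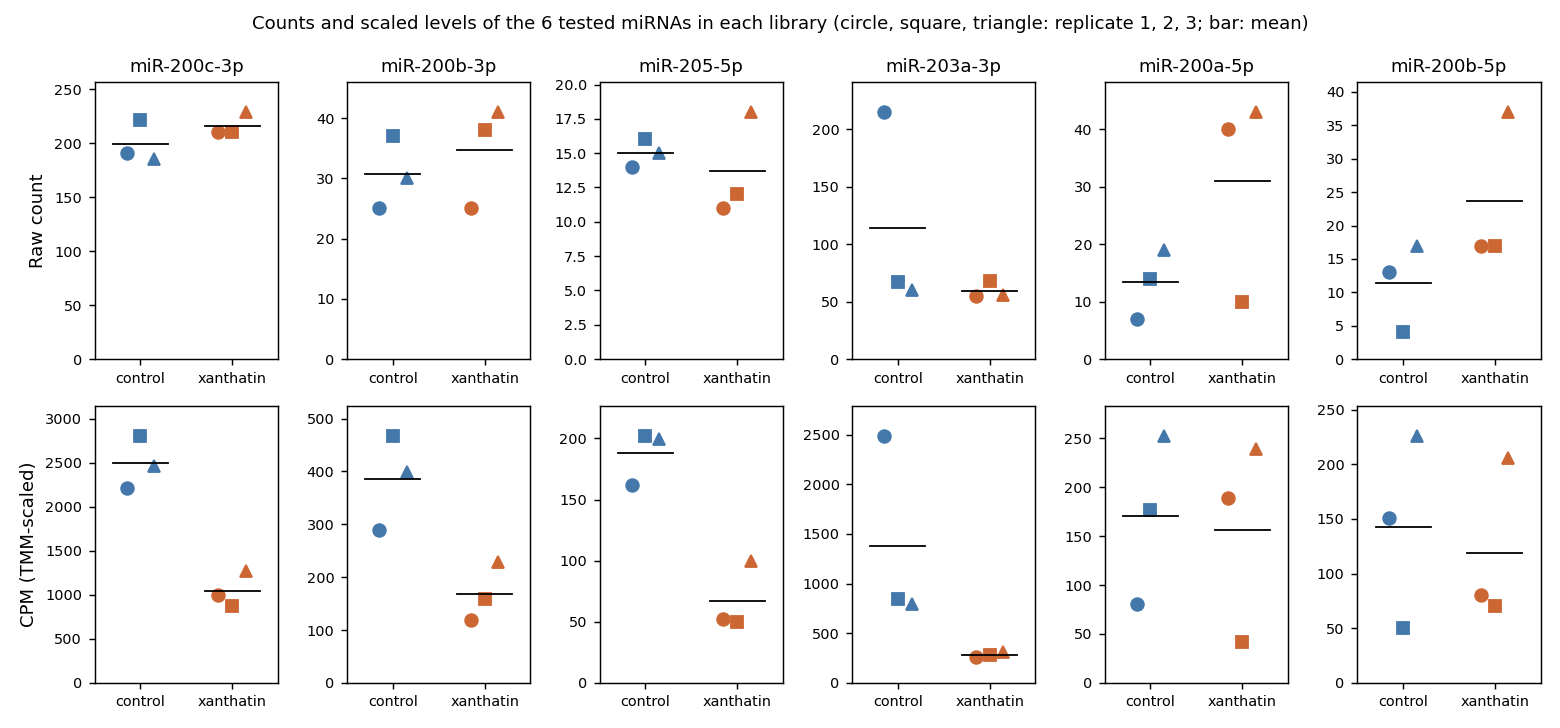
Raw counts (upper row) and CPM (lower row) of the 6 tested miRNAs in each library, with replicates 1, 2 and 3 as circle, square and triangle and the group mean as a bar. Raw counts of miR-200c-3p lie between 185 and 229 in all 6 libraries, while its CPM separates the groups. miR-203a-3p lies at 55 to 68 counts in all libraries but control replicate 1, where its CPM is 2488.

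The 5p arms varied widely within groups. miR-200a-5p was read 7, 14 and 19 times in the control replicates and 40, 10 and 43 times with xanthatin. Its mean CPM was 170.2 ± 86.1 without and 156.6 ± 102.6 with xanthatin, for a log2 fold change of -0.12 (SE 0.82, 95% interval -2.09 to 1.85, adjusted p = 0.943 by edgeR). Xanthatin replicate 2 was low, at 10 counts in the library with the largest total, and without it the value was 0.35 (adjusted p = 0.793). miR-200b-5p, with the same seed, was read 13, 4 and 17 times in the control replicates and 17, 17 and 37 times with xanthatin. Its mean CPM was 142.4 ± 88.1 and 118.9 ± 75.2, for a log2 fold change of -0.26 (SE 0.79, 95% interval -2.16 to 1.64, adjusted p = 0.855 by edgeR). The sign of both 5p values turned when control replicate 3 was left out (0.27 and 0.33). Both intervals include the value of miR-200c-3p.

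The clustered hairpins MIR200A and MIR200B were read mostly from opposite arms. The 3p arm made up 65.8%, 90.2% and 63.8% of the MIR200B counts in the control replicates and 59.5%, 69.1% and 52.6% with xanthatin. For MIR200A the same share was 22.2%, 22.2% and 9.52% in the control replicates and 4.76%, 23.1% and 4.44% with xanthatin. In each of the 6 libraries the MIR200B share was above that of MIR200A, and their 95% Wilson intervals overlapped in control replicate 1 alone (49.9% to 78.8% against 6.32% to 54.7%). The arm shares rest on 38 to 78 counts for MIR200B and 9 to 45 for MIR200A in a library. The MIR200B interval lay wholly above an even split only in control replicate 2 (77.5% to 96.1%) and xanthatin replicate 2 (56% to 79.7%). That of MIR200A reached past an even split in control replicate 1 (54.7%) and xanthatin replicate 2 (50.3%). Neither arm ratio differed between groups beyond the spread (two-sided exact permutation test, p = 0.3 for MIR200B and p = 0.4 for MIR200A, with 0.1 the smallest p that 3 against 3 libraries allow).

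**Figure D3:**
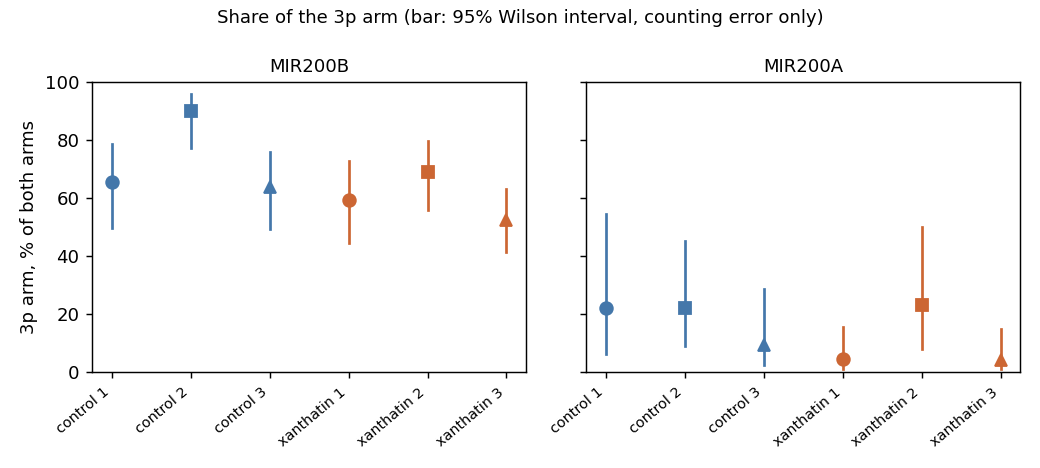
Share of the 3p arm among counts of both arms of MIR200B and MIR200A in each library, with 95% Wilson intervals that cover counting error only. The MIR200B shares run from 52.6% to 90.2% and the MIR200A shares from 4.44% to 23.1%.

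In control libraries the order of mean CPM was miR-200c-3p, miR-203a-3p, miR-200b-3p, miR-205-5p, miR-200a-5p, miR-200b-5p, miR-200a-3p and miR-429, with both miR-141 arms at 0. All are of near equal length, so counts can be set side by side, although ligation and amplification may favour some sequences. Neighbours in this order had separate ranges only between miR-203a-3p and miR-200b-3p (798 and above against 467 and below) and between miR-200b-3p and miR-205-5p (289 and above against 202 and below). In xanthatin libraries miR-200a-5p and miR-200b-5p came before miR-205-5p, and the ranges of these 3 overlapped. miR-200c-3p and miR-203a-3p were separate there, with 873 and above against 311 and below.

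Together the 10 members held 467, 366 and 329 counts in the control replicates and 361, 359 and 427 with xanthatin, so their raw sums were close (387.3 ± 71.4 and 382.3 ± 38.7) in libraries of unequal depth. As a share of miRNA counts these were 0.583% (95% Wilson interval 0.533% to 0.638%), 0.521% (0.471% to 0.577%) and 0.514% (0.462% to 0.573%) in control libraries. In xanthatin libraries they were 0.151% (0.137% to 0.168%), 0.134% (0.121% to 0.149%) and 0.209% (0.190% to 0.230%). The highest xanthatin share lay under the lowest control share. These shares are of raw totals, without the allowance of TMM for composition. With library totals only, the median log2 fold change of all 254 tested miRNAs was -0.49, against -0.16 with TMM. On the deposited TPM, which the authors scaled to a larger total than the miRNA counts, the members summed to 36.8 ± 1.77 in control and 13.2 ± 2.39 in xanthatin libraries. miR-203a-3p took 46.0% of the member counts in control replicate 1 and 13.1% to 18.9% in the other 5 libraries. Without it, the other 9 held 0.387% ± 0.0627 and 0.139% ± 0.0377.

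Ratios inside a library do not depend on how libraries are scaled, so they compare members with each other. In the exact permutation test of 3 against 3 libraries no pair can fall below p = 0.1, so none could pass 0.05. Of the 10 members, 7 had a count in every library, which gave 21 pairs. The log2 ratio of miR-200c-3p to miR-200b-3p was 2.69 ± 0.19 in control and 2.65 ± 0.34 in xanthatin libraries, a difference of -0.04 (two-sided exact permutation test, n = 3, p = 0.8). For miR-200c-3p to miR-205-5p it was 3.69 ± 0.09 and 3.97 ± 0.30, a difference of 0.28 (exact permutation p = 0.3). The 3 miRNAs thus kept similar proportions in both groups within this spread, which does not show that they changed alike.

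The log2 ratio of miR-200c-3p to miR-203a-3p was -0.17, 1.72 and 1.62 in the control replicates and 1.92, 1.62 and 2.02 with xanthatin. Control replicate 1 set most of the difference of 0.80 (exact permutation p = 0.2), which was 0.19 without it. For miR-200c-3p to miR-200a-5p the values were 4.67, 3.94 and 3.25 against 2.38, 4.33 and 2.40, a difference of -0.92 (exact permutation p = 0.3). Of the 21 pairs, 1 had groups that did not overlap, miR-200b-5p over miR-205-5p, named after its values were seen, with a difference of 1.30 (exact permutation p = 0.1). Adjusted over the 21 pairs, the smallest value was 0.63, and this design could not show whether members moved apart.

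**Figure D4:**
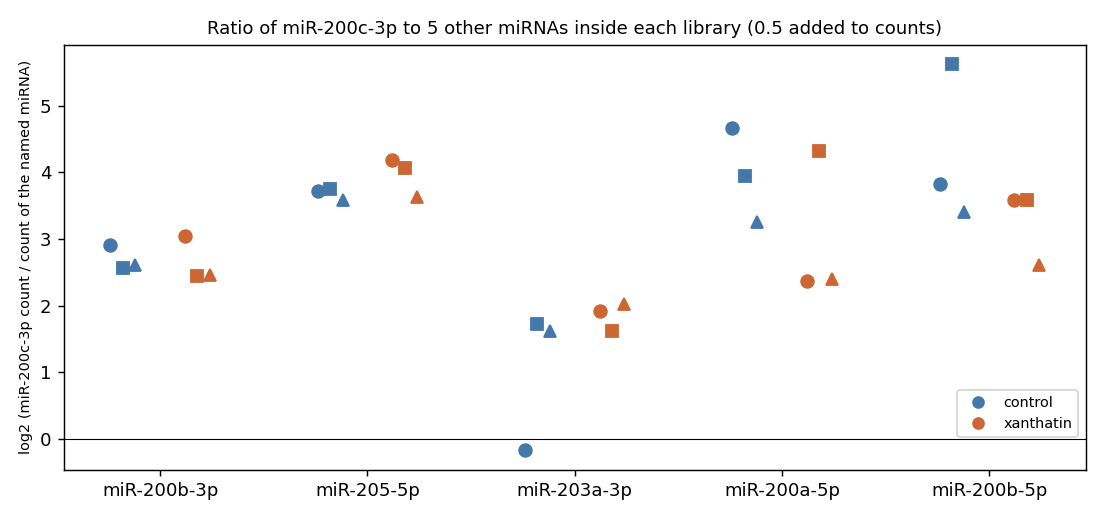
Log2 ratio of the miR-200c-3p count to the counts of 5 other miRNAs in each library, with 0.5 added to each count (circle, square and triangle are replicates 1, 2 and 3). The ratios to miR-200b-3p (2.45 to 3.04) and miR-205-5p (3.58 to 4.19) vary little, and control replicate 1 stands alone at -0.17 in the ratio to miR-203a-3p.

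Profiles over the 6 libraries were compared by the root mean square distance between log2 CPM values, each centred on its own mean, as a description without a test. The distance was 0.15 between miR-200c-3p and miR-205-5p, 0.21 between miR-200c-3p and miR-200b-3p, and 0.20 between miR-200b-3p and miR-205-5p. miR-203a-3p was 0.73 to 1.47 from every other tested member. Among 172 known non-members, the nearest to miR-200c-3p were miR-372-5p (0.10), miR-148a-3p (0.10) and miR-371a-3p (0.13), against a median distance of 1.06. The nearest to miR-205-5p were miR-371a-3p (0.14), miR-371b-3p (0.15) and miR-371a-5p (0.17), arms from an embryonic miRNA cluster. For miR-200b-3p they were miR-516b-5p (0.20), miR-2110 (0.21) and miR-372-5p (0.22). Like miR-200c-3p, miR-371a-3p had raw counts of similar size in all libraries, with 201, 255 and 253 in the control replicates and 224, 224 and 251 with xanthatin. Since neighbours were picked for near profiles, this likeness adds no support.

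miR-203a-3p had looser neighbours, miR-92a-1-5p (0.38), miR-1-3p (0.46) and miR-20a-5p (0.53). miR-92a-1-5p was read 93, 64 and 44 times in the control replicates and 34, 32 and 30 times with xanthatin, also highest in control replicate 1. It was picked for its near profile, so this likeness follows from the choice. For miR-200a-5p the nearest were miR-4443 (0.44), miR-16-2-3p (0.52) and miR-629-5p (0.54). For miR-200b-5p they were miR-1249-3p (0.40), miR-130b-5p (0.46) and miR-625-3p (0.48).

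Other miRNAs linked to epithelia were mixed in direction. Of 7 tested rows on a list of epithelium-enriched miRNAs, 3 rose, 0 fell and 4 did not pass, against 13.4% higher and 16.9% lower over all tested miRNAs, and the median log2 fold change was 0.65. miR-183-5p and miR-182-5p, which share a precursor cluster active in sensory and other epithelia, rose by 1.07 (adjusted p = 9.27e-04) and 0.65 (adjusted p = 0.0459). miR-192-5p, of liver and gut epithelium, rose by 1.22 (adjusted p = 0.0399). The largest change of the list was negative, in miR-194-3p, from a precursor clustered with that of miR-192. It was at 1437 ± 325 and 412.5 ± 293 CPM without overlap and did not pass (-1.80, adjusted p = 0.0585 by edgeR). The other arm, miR-194-5p, went the other way and did not pass either (53 and 433 counts, 1.67, adjusted p = 0.338 by edgeR). miR-375-3p, of endocrine and mucosal epithelium, was at 614.1 ± 99.6 and 334.6 ± 10.8 CPM and did not pass (-0.87, adjusted p = 0.0965 by edgeR). The difference between these miRNAs and the members was not itself tested.

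The lists of miRNAs reported to restrain or to promote the epithelial to mesenchymal transition were mixed. For comparison, 16.9% of the 254 tested miRNAs were called lower and 13.4% higher, with a median log2 fold change of -0.16. Lists this short hold few calls at those shares, so nothing particular to either list is read from their counts. Of 8 tested rows of the restraining list, 1 fell, 1 rose and 6 did not pass, with a median of -0.60. miR-148a-3p, its most abundant row, fell by 1.29 on the log2 scale (adjusted p = 0.00272), miR-30d-5p was at -0.49 (adjusted p = 0.139) and miR-29a-3p at -0.71 (adjusted p = 0.148). The row that rose, miR-7-5p, was at 2.41 (adjusted p = 0.00535 by edgeR). Of 9 tested rows of the promoting list, 1 rose, 1 fell and 7 did not pass, with a median of 0.84. miR-21-5p, a common oncogenic miRNA, rose by 1.36 (adjusted p = 0.00347) and miR-10b-5p fell by 1.81 on the log2 scale (adjusted p = 0.00306). miR-24-3p was at -0.10 (adjusted p = 0.861) and miR-221-3p at 1.16 (adjusted p = 0.231 by edgeR).

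**Figure D5:**
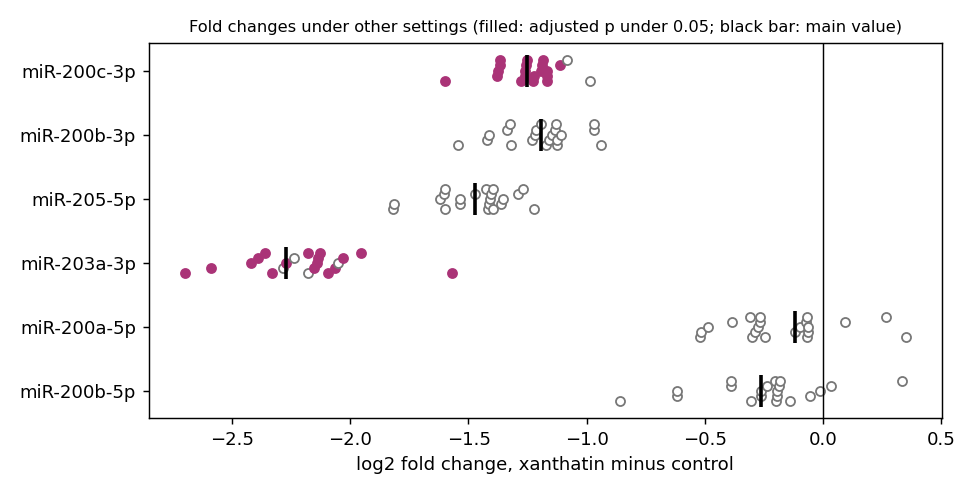
Log2 fold changes of the 6 tested miRNAs under up to 21 other settings (points, filled where the adjusted p was under 0.05), with the value of the main fit as a black bar. miR-200c-3p runs from -1.60 to -0.99 and miR-203a-3p from -2.70 to -1.57, while the points of both 5p arms lie on either side of 0.

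The 4 tested members whose groups did not overlap kept a negative fold change in each of the 21 alternative settings, as the plot of fold changes under other settings shows. With groups apart in CPM, leaving out a library could hardly turn the sign, so the stable sign adds no support. Scaling moved the median of all tested miRNAs from -0.16 to -0.49 with library totals only. The members' median moved with it, from -1.22 to -1.57. It lay 1.07 below the median of all tested miRNAs with TMM and 1.08 below with totals only. Scaling shifts all fold changes by nearly the same amount, so this near equal gap says nothing about the members. Over the alternative settings the members' median minus that of all ran from -0.88 (without xanthatin replicate 1) to -1.56 (no count filter). With totals only, 73.2% of called miRNAs were lower, against 55.8% with TMM.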

How the data were processed

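Vesicle RNA of 18 to 30 nt was sequenced, in 3 control and 3 xanthatin libraries. Per the file headers, the authors deposited a raw count and a TPM value per miRNA name and library. The deposited TPM is the count divided by 1 constant per library, scaled to a total the sources do not describe. The submitters' processing notes name hg38. Aligner and counter: not given in the sources used here. Counts (1007 rows) were tested with edgeR 4.0.16 (R 4.3.3): quasi-likelihood F test on group, TMM, default filter with minimum count 10, Benjamini-Hochberg over 254 miRNAs, threshold 0.05. Each SE was taken as |log2 fold change| over √F. Ratios had 0.5 added to each count.

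Groups follow the titles. Named were all members, the 3 nearest profiles of each tested member, miRNAs sharing a seed, miR-203b and the 3 most abundant rows of each of 3 pathway lists. Marker lists were given as sums. miR-375-3p, miR-194-3p, miR-194-5p, miR-7-5p, miR-10b-5p and the single marker miRNAs were named after their values were seen. The members and lists were chosen with earlier results of these data known. Sequences are from RefSeq. The fit was tested on simulated data. Alternatives used other scalings, filters, libraries and DESeq2 1.42.0 or limma 3.58.1. Intervals and floors of 3 counts cover counting error only, and the labels name no molecular identifiers.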

Additional observations from a re-analysis of the deposited data

How the results depend on the processing

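Over 21 alternative settings, the number of members called lower was 2 in 15 and 1 in 6, and 0 were called higher in each. It was 1 with no count filter (miR-203a-3p) and 1 with the replicate number as a replicate block, where miR-203a-3p did not pass (-2.05, adjusted p = 0.0694). Leaving out a library gave 1 to 2. Same-numbered libraries did not deviate together (correlations 0.12, -0.01 and -0.05), so the numbers were not taken as pairs. Of all miRNAs, 43 were called lower, 27 with known names only, 31 to 41 with a library left out, and 60 with library totals only, 54 with DESeq2 and 51 with limma-voom. The 34 called higher became 22 with library totals only, 22 with known names only, 60 with DESeq2, 21 with the block, and 22 to 30 with a library left out. The number tested changed as well, from 254 in the main fit to 175 with known names only. It was 244 to 246 without a xanthatin library and 337 to 345 without a control library. Those counts alone thus do not show a change in the share called. The summed share of 0.540% in control and 0.165% in xanthatin libraries was 0.597% and 0.209% of known names, and 1.26% and 0.449% without the 10 most abundant miRNAs. Leaving out a library gave 0.518% to 0.552% and 0.143% to 0.180%.

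The value of miR-200a-5p turned positive with no count filter (0.094) and without control replicate 3 (0.27) or xanthatin replicate 2 (0.35), and that of miR-200b-5p without the same libraries (0.33 and 0.03). With a library left out these values ran from -0.52 to 0.35 and from -0.86 to 0.33. The difference in the log2 ratio of miR-200c-3p to miR-200b-3p ran from -0.235 to 0.068 with a library left out, turning at 0.068, 0.062 and 0.054 without control replicate 1 and xanthatin replicates 2 and 3. The other 5 ratios kept their sign. The cause of these shifts was not tested. Depth limits miR-200a-3p, miR-429 and both miR-141 arms, which had 0 to 4 counts a library.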
